A study of Mus musculus with 3 samples.

Results

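The cell cycle and meiotic regulators described here are the genes named as cyclins of the A, B, D, E, F, G, I, K, L and T families, cyclin-dependent kinases (Cdk), cell division cycle genes (Cdc), polo-like kinases (Plk), aurora kinases (Aurk), spindle checkpoint genes (Bub, Mad), subunits and activators of the anaphase-promoting complex (Anapc, Fzr), Wee kinases and NIMA-related kinases (Nek), or with a name that starts with Emi, that had at least 1 called 5-methylcytosine (m5C) site in mRNA. They were chosen by the first letters of the gene name, and 81 of the 8353 genes with a site followed that rule. Of 127 protein-coding genes in the annotation whose names follow it, 46 had no called site at any stage, among them Cdk1, Ccna1, Ccna2, Ccne1, Ccne2, Bub1, Mad2l1 and Cdc16. The share of all protein-coding genes with a called site was not computed, so this count does not set the regulators apart from other genes. Since only called sites were listed, a gene without a site may be unmethylated, methylated below the limits or too thinly covered. Its sites may also have been removed by the other filters of the study, such as that for genes that resist conversion.

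RNA bisulfite sequencing turns cytosine into uracil and leaves m5C as C, and the m5C level of a C is the percentage of its reads that stayed unconverted. All 3 libraries came from wild type C57BL/6J mice of 7 to 8 weeks, with the zona pellucida removed, and with 1 library at each stage no value could be checked in a replicate. Fully grown germinal vesicle (GV) oocytes were taken from females given 10 IU of pregnant mare serum gonadotrophin (PMSG) 48 h before, and metaphase II (MII) oocytes 12 h after 5 IU of human chorionic gonadotrophin that followed 10 IU of the first hormone by 44 to 48 h. The 1-cell embryos came from females mated with males of that strain, 24 h after 5 IU of the second hormone and with 5 IU of the first, and were pooled for the library. Ages and doses are those of the labels, and the methods of the study differ from them in the age of the oocyte donors and in hormone doses for the MII oocytes and the embryos. The conversion text also differs between oocytes and embryo, so the batch of a library and its stage cannot be told apart. All 15 oocyte marker transcripts looked for had a called site at some stage (10, 12 and 15 of them at the successive stages), against 4 of 15 granulosa and cumulus cell markers (1, 2 and 2), which had 1, 2 and 8 sites, and their part in the results was not tested.

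Meiosis in the oocyte turns on CDK1 bound to a B-type cyclin. Wee kinases hold CDK1 inactive during the long GV arrest, Cdc25 phosphatases release it, and the anaphase-promoting complex or cyclosome (APC/C) ends each division by sending cyclin B and securin to the proteasome. The fully grown oocyte makes almost no new RNA, so it divides, and the embryo begins to, on stored maternal mRNA. In mRNA, m5C is written mainly by NSUN2, whose sites (Type I) lie at the foot of a stem and before a run of G, and by NSUN6, whose sites (Type II) carry the motif CUCNA.

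Some of the sites named in the results are shown here as 30 bases of the transcript, in DNA letters from the GRCm38 sequence. Capitals mark the methylated C and the 4 bases after it. The first set is a selection from the regulators of CDK1, the APC/C, the checkpoint and the mitotic kinases. It leaves out the sites of Aurkb and Anapc1 that were among the greatest rises in the embryo.
Ccnb1 CDS, chr13:100785769, minus strand: taataaagtCAGCGaagagctacaggcaag
Ccnb3 CDS, chrX:7007756, minus strand: cactgctgcCAGGGaagctcatgctgagaa
Cdc25a 3′ UTR, chr9:109892987, plus strand: agtgttcctCGGGGaaagtcttgtctccac
Cdk2 5′ UTR, chr10:128704845, minus strand: gggcctgagCCGCCtcactagcgctccatg
Fzr1 CDS, chr10:81370200, minus strand: tgcaccagcCAGGTgacccggctctgtgac
Anapc15 3′ UTR, chr7:101900480, plus strand: atgtgggagCAGAGcatgggcctccagtag
Bub1b CDS, chr2:118623137, plus strand: aggaaatgtCGGGAgttcctctgtcctgtt
Plk1 CDS, chr7:122159610, plus strand: gtggggttcCGGGAgatgcagttcccggtg
Plk4 CDS, chr3:40812859, plus strand: cacagtcccCAGGActcagtccttccactg
Aurkc CDS, chr7:6999985, plus strand: acgataataCAGGAgttgtcagatgccctg
The second set holds the Type II sites that were called at every stage.
Cdc6 CDS, chr11:98919328, plus strand: tcccttcctCTCCAgcagaagatcctggtt
Ccnl2 CDS, chr4:155823414, plus strand: gtgactctcCTCCAaggcaggtacaccgag
Cdc42ep3 CDS, chr17:79334923, minus strand: cagccactcCTCCAgcctgtcggaacagtc

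The 81 regulators carried 377 distinct sites of the 40298 in the 3 lists. The GV oocyte had 129 sites in 62 regulators, the MII oocyte 176 in 69 and the 1-cell embryo 279 in 70. Over all listed genes the counts also rose, with 15910, 20694 and 24996 sites in 6108, 6736 and 6407 genes. The median level was 19.2% (95% interval of the median 16.4 to 24.6), 19.1% (17.9 to 20.8) and 23.4% (21.1 to 26.1) in that order, against 19.5%, 19.8% and 23.8% over all listed genes. The embryo therefore had the most sites and the highest median level, but it was also the most thinly read: median coverage, counted in reads per site, was 172, 172 and 60 reads, against 121, 107 and 58 over all sites. With sites of 50 or more reads alone, the counts were 105, 142 and 167, against 12674, 15946 and 14749 over all listed genes. The embryo's median for the regulators was then 17.5%, which lies below those of the oocytes (18.4% and 18.6%). The lists require 5 unconverted reads, which acts as a higher level limit where coverage is low.

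The coding sequence (CDS) held 63.6%, 67.0% and 74.2% of the regulators' sites at the 3 stages, close to the 68.0%, 68.6% and 73.2% of all sites. The 5′ untranslated region (UTR) held 17.0%, 16.5% and 14.7%, against 11.2%, 11.3% and 10.3%, and no test of this difference was made. Type II sites numbered 6, 7 and 11, or 4.65%, 3.98% and 3.94% of the regulators' sites, against 5.91%, 5.03% and 3.44% of all sites. Predicted folds of windows centred on the site paired the Type I site itself in 61.6% of 352 windows, the base before it in 52.8% and the base 3 nt after it in 71.6%, against 60%, 53% and 72.3% over 38028 windows of all listed genes. At these positions the Type I sites of the regulators gave values near those of all Type I sites. Type II sites were paired in 50% of 14 windows, against 38.3% of 1658. The base 5 nt before them was paired in 85.7%, against 61%, and the base 7 nt after them in 42.9%, against 62.6%. These flanking positions were among those that differed most, while the base just before the site gave 35.7%, against 36.9%. All these values are placed only roughly by 14 windows.

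A site was listed at every stage for 69 of the 377 (18.3%, against 15.2% over all genes), and 184 (48.8%, against 41.3%) were listed in the embryo alone. As a share of the embryo's own sites these were 65.9%, against 66.6% over all genes. Of those 184 embryo sites, 157 (85.3%, against 88.4%) lay in regulators that had another site in an oocyte list. Their median level was 18.5% at a median of 57.5 reads, while the embryo sites shared with an oocyte list had a median of 39.5% at 79 reads. By gene, 53 of the 81 regulators (65.4%, against 53.9%) had a site at every stage. A further 10 (12.3%, against 13.6%) had sites in the embryo alone: Aurka, Bub3, Ccnt2, Cdc40, Cdk2ap1, Cdk7, Mad1l1, Mad2l1bp, Mad2l2 and Nek5. Another 7 (8.64%, against 13.4%) had sites in both oocytes and none in the embryo list: Cdc23, Cdc42ep4, Cdc42se1, Cdc45, Cdk15, Fzr1 and Plk3.

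**Figure D1:**
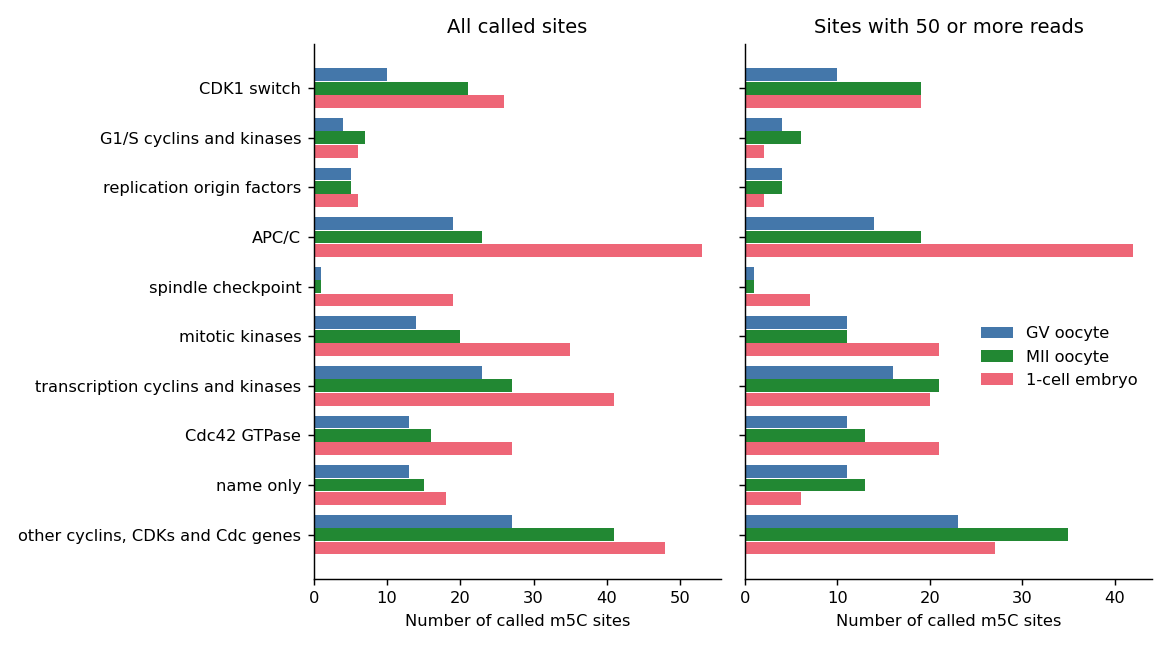
Number of called m5C sites per role group in each library, for all called sites (left) and for sites with 50 or more reads (right). The APC/C went from 19 and 23 sites in the oocytes to 53 in the embryo, and from 14 and 19 to 42 with 50 or more reads, while the spindle checkpoint went from 1 and 1 to 19, and from 1 and 1 to 7. Over all listed genes the counts went from 15910 and 20694 to 24996, and from 12674 and 15946 to 14749 with 50 or more reads.

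Levels were compared at sites called in both libraries of a pair with Fisher's exact test (two-sided) on unconverted and converted reads, adjusted by Benjamini-Hochberg over all shared sites of the pair. The test compares the reads of 2 libraries and not the stages. Between the GV and the MII oocyte, 23 of 112 shared sites in regulators were higher in the MII oocyte (20.5%, against 19.6% of all shared sites) and 1 was lower (0.893%, against 0.965%). From the MII oocyte to the embryo, 49 of 92 were higher (53.3%, against 51.3%) and 1 was lower (1.09%, against 2.45%). From the GV oocyte to the embryo, 53 of 72 were higher (73.6%, against 66.1%) and 1 was lower (1.39%, against 1.05%). These shares lie near those of all shared sites. When reads were divided by 5, to allow for copies of 1 molecule, 0 of 112, 7 of 92 and 12 of 72 sites were called higher. Over all shared sites the shares were 0.672%, 7.34% and 21.1%. At an unadjusted p under 0.05 the regulator counts were 8, 17 and 19.

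The median difference in level was 5.35 percentage points (3.03 to 6.45) from GV to MII oocyte, 12.1 points (10.0 to 16.4) from MII oocyte to embryo and 19.7 points (16.4 to 25.2) from GV oocyte to embryo. Over all shared sites it was 4.87, 12.7 and 19.2 points. At the 69 sites called at every stage the median level was 28.6%, 35.9% and 54.8%, and 50 of them (72.5%, against 67.4% over all genes) had a higher level at each step. A single site fell at both steps. These differences and the counts above hold only for sites that passed the limits in every library compared. A site that fell below the limits is not counted, and in the thinly read embryo the limit on unconverted reads removes low levels most. The rises and the few falls are thus those of sites kept by the lists.

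**Figure D2:**
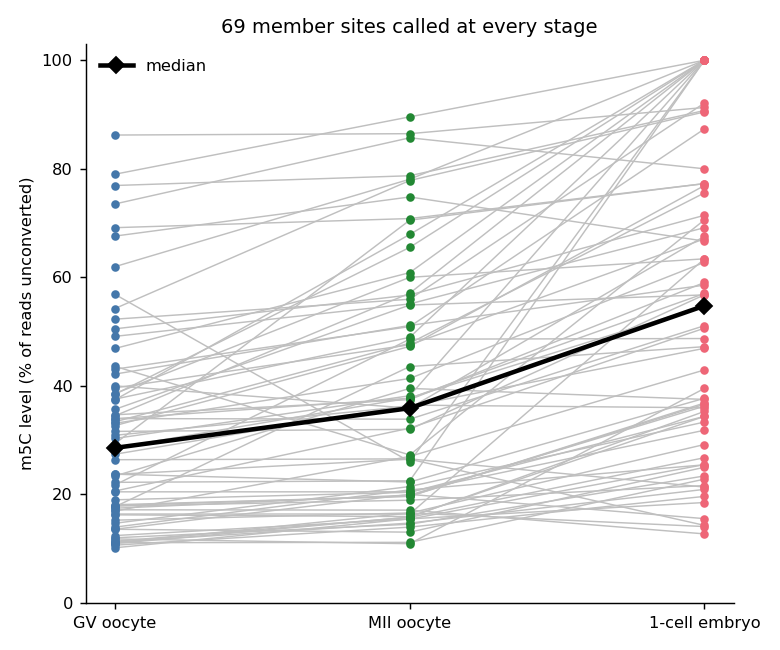
m5C level, in percent of reads unconverted, at the 69 regulator sites called at every stage, with 1 grey line per site and the median in black. The median was 28.6%, 35.9% and 54.8%, and 10 of the lines end at 100% in the embryo.

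The switch of CDK1 was represented by 9 genes with 10, 21 and 26 sites at the 3 stages. Ccnb1, a mitotic B-type cyclin that binds CDK1, had its main site in the CDS, 155 nt after the first base of the start codon. It was not in the GV oocyte list, stood at 12.4% of 4190 reads in the MII oocyte and at 20.6% of 3172 reads in the embryo (Fisher's exact test, adjusted p = 1.1e-19). This was the deepest site of any regulator in the MII oocyte and the embryo. Ccnb2, the other mitotic B-type cyclin, had a CDS site at 31.6% of 348, 32.0% of 344 and 56.8% of 118 reads, so that the level was nearly equal in the oocytes and higher in the embryo (exact test against the MII oocyte, adjusted p = 1.6e-05). Ccnb3, a cyclin needed for the first meiotic division of the oocyte, followed another course. Its site had a level of 29.4% in the GV oocyte (109 reads), 70.5% in the MII oocyte (95 reads) and 77.3% in the embryo (22 reads). The gain of 41.2 points between the oocytes (exact test, adjusted p = 2.5e-07) was the greatest among regulator sites called higher in that pair, and the later difference did not pass the test. The C just before it, called only in the MII oocyte, stood at 12.6% of the same 95 reads, so adjacent cytosines of 1 transcript differed widely.

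Cdc25a, a phosphatase that activates CDK1 and CDK2, had 11 distinct sites. Of 3 sites in its 3′ UTR, 1 was high throughout, at 76.9% of 208, 78.7% of 188 and 90.7% of 108 reads. The median over all Cdc25a sites was 13.9%, 15.3% and 16.2% at the successive stages. A site in its 5′ UTR, 28 nt before the start codon, stood at 11.1% of 298, 16.6% of 308 and 29.2% of 161 reads, and was higher in the embryo than in either oocyte (exact test, adjusted p = 0.0046 against the MII oocyte and 7e-06 against the GV oocyte). Another 4 sites in that 5′ UTR, between 12.0% and 20.7%, were called in the embryo alone. Cdc25b, the phosphatase needed for the oocyte to resume meiosis, had no site in the GV oocyte, 1 at 10.1% of 208 reads in the MII oocyte and 2 others in the embryo at 51.9% of 27 and 22.7% of 44 reads. Cdc25c, another phosphatase of the family, had a site at 48.4% of 64 and 50% of 38 reads in the oocytes and a different one, at 25% of 36 reads, in the embryo.

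Wee2, the oocyte form of the kinase that holds CDK1 inactive, had a CDS site at 17.4% of 470, 19.9% of 297 and 36.3% of 91 reads, higher in the embryo than in the MII oocyte (exact test, adjusted p = 0.0048). Its other 3 sites were called in the embryo alone, at 10.2% to 23.6% and with 144 to 441 reads. Wee1, the somatic form, had 1 site, in the 5′ UTR, at 13.3% of 60 reads in the MII oocyte. Cdk2, the kinase of the G1/S transition, had a 5′ UTR site 18 nt before the start codon at 30.3% of 99, 38.2% of 110 and 100% of 30 reads (95% exact interval in the embryo 88.4% to 100%). The embryo level was higher than in the MII oocyte by 61.8 points (exact test, adjusted p = 6.9e-10). A second Cdk2 site, 68 nt into the CDS, took its gain earlier, at 35.7% of 157, 54.9% of 133 and 56.8% of 37 reads. Within this group 8 of 13 sites shared by MII oocyte and embryo, in 6 genes, were called higher (61.5%, against 51.3% of all shared sites) and none lower. Their median difference was 12 points, against 12.7 over all shared sites. Median coverage was 210 reads in the MII oocyte and 91 in the embryo, against 240 and 66.

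**Figure D3:**
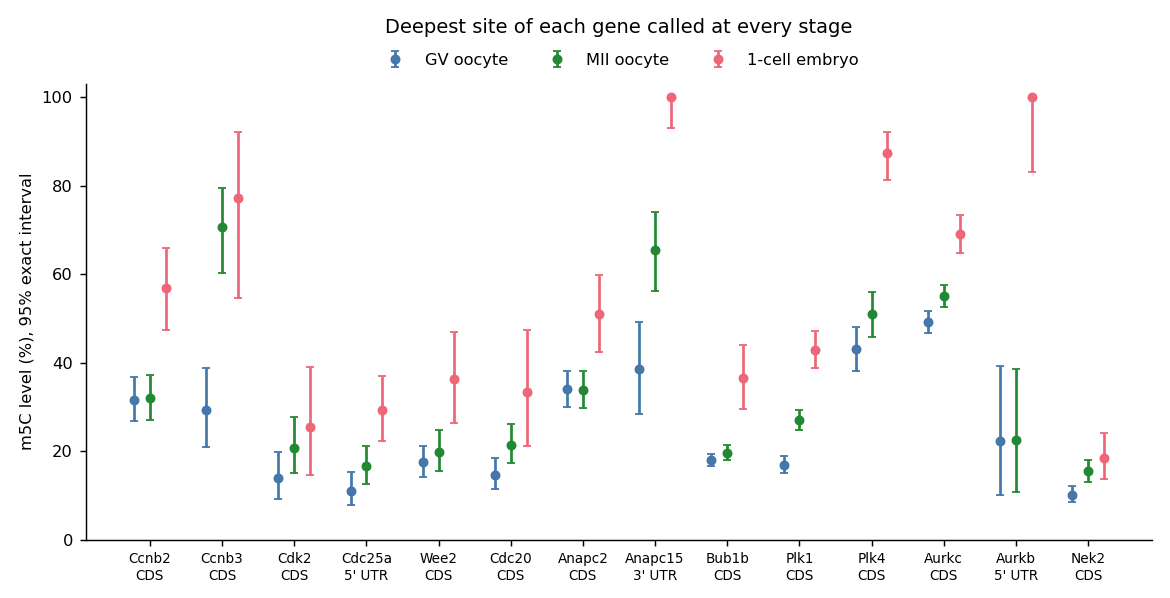
m5C level with its 95% exact binomial interval in each library, at the deepest site called at every stage in 14 regulators. Plk1 rose at each step with intervals that do not overlap (16.9%, 27% and 42.9%), whereas Bub1b and Wee2 stood at nearly the same level in both oocytes and higher in the embryo.

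The APC/C and its activators had 11 genes and the most embryo sites of any group, 53 against 19 in the GV oocyte and 23 in the MII oocyte. With 50 or more reads the group had 14, 19 and 42 sites at the successive stages, against 12674, 15946 and 14749 over all listed genes. At that depth 78.6% of its embryo sites were called in the embryo alone, against 64.9% over all genes. Of the 53, 40 were called in the embryo alone (75.5%, against 66.6% of the embryo sites of all genes), all of them in genes that had an oocyte site too (against 88.4%), at a median level of 16.7% and a median of 67 reads. Anapc1, the scaffold subunit, had 2, 4 and 15 sites, all in the CDS. Anapc2, the cullin subunit that holds the ubiquitin transfer site with Anapc11, had 16 distinct sites, likewise all in the CDS, of which 12 were called in the embryo alone. One Anapc1 site, 865 nt into the CDS, stood at 19.5% of 231 reads in the MII oocyte and 80.6% of 36 in the embryo, a difference of 61.1 points (exact test, adjusted p = 1.9e-11). An Anapc2 site at 11.7% of 487 reads in the MII oocyte stood at 52.8% of 106 in the embryo (exact test, adjusted p = 3.4e-17), and a second one was level in the oocytes, at 34.0% of 524 and 33.9% of 508, and higher in the embryo, at 51.1% of 137. Not all sites of these genes moved so: another Anapc2 site, 978 nt into the CDS, stood at 17.8%, 18.9% and 21.6% and passed no test.

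Anapc15, a small subunit that helps turn over the checkpoint complex, had all of its sites in the 3′ UTR. The highest stood at 38.5% of 91, 65.5% of 116 and 100% of 51 reads, and each step passed the test (adjusted p = 0.0017 and 4e-07, exact). A neighbour 49 nt on stood at 17.7% of 79, 43.6% of 101 and 47.2% of 36 reads and was called higher between the oocytes. Anapc16 had a 5′ UTR site at 38.6% of 197, 60% of 220 and 63.4% of 82 reads, with the same course as Ccnb3 in that the gain came between the oocytes (exact test, adjusted p = 0.00025). Anapc4 and Anapc7, further structural subunits, and Anapc11, the RING subunit, had levels of 10.3% to 29.0% at every site, and none of their shared sites passed a test. The Cdc27 subunit had a 5′ UTR site at 10.9% of 92 reads in the GV oocyte and 21.4% of 42 in the embryo, which did not pass the test, and Cdc23 had 1 site, in the oocytes, at 16.2% of 37 and 23.3% of 30 reads.

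The activators differed. Cdc20, which directs the APC/C at anaphase and is held back by the spindle checkpoint, had a site 17 nt into the CDS at 14.7% of 402, 21.4% of 359 and 33.3% of 54 reads, higher in the embryo than in the GV oocyte (exact test, adjusted p = 0.0029). It had 3 more sites in the embryo alone. Fzr1 (Cdh1), which keeps cyclin B low during the GV arrest, had the highest level of any APC/C site in the oocytes, 80.6% of 619 reads (77.3% to 83.7%) and 86.3% of 388 (82.5% to 89.6%). No Fzr1 site was in the embryo list. For a site so high and so deep in the oocytes the absence could come from low coverage, from a lower level or from the other filters. The lists do not tell these apart.

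**Figure D4:**
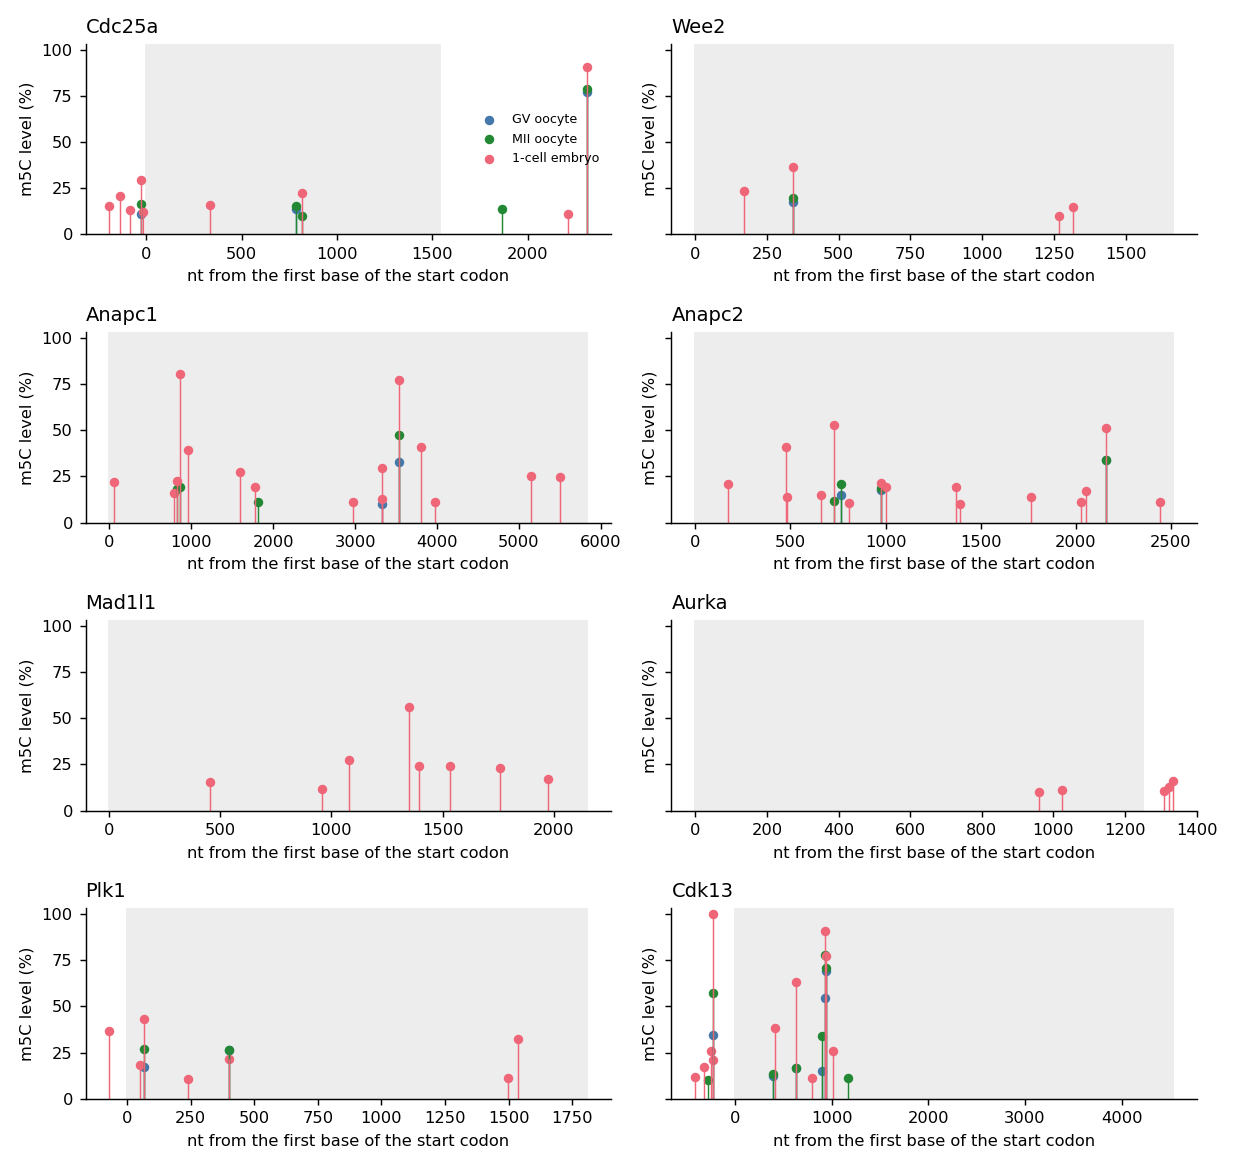
Called sites along the mRNA of 8 regulators, by distance in nt from the first base of the start codon (grey, CDS) and m5C level in percent, coloured by library. Sites called in the embryo alone fill the CDS of Anapc1 and Anapc2, and all sites of Mad1l1 and Aurka were called in the embryo.

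The spindle checkpoint, which delays anaphase until chromosomes are attached, had 5 genes and 1, 1 and 19 sites. Bub1b (BubR1), which binds Cdc20 in the inhibitory complex, accounted for both oocyte sites. Its CDS site was the deepest of all regulator sites in the GV oocyte, at 17.9% of 3088 reads, and stood at 19.7% of 2329 in the MII oocyte and 36.6% of 183 in the embryo (exact test against the MII oocyte, adjusted p = 2.2e-06). The difference of 1.72 points between the oocytes did not pass the test in spite of that depth. The other 17 embryo sites, beyond a second one in Bub1b, were in genes with no oocyte site. Mad1l1, which recruits Mad2 to kinetochores, had 8 CDS sites at 11.8% to 56.1%. Mad2l1bp (p31comet), which takes Mad2 out of its complex, had 4 at 17.6% to 31.7%. Bub3, the partner of Bub1b, had 1 at 14.1% of 85 reads. Mad2l2, a Mad2 relative that also serves in DNA repair, had 4 in its 3′ UTR, of which 1 stood at 100% of 34 reads (89.7% to 100%) and the C just before it at 28.6% of 35. Of the 19 embryo sites, 12 had under 50 reads. Whether these transcripts were unmethylated, too thinly covered or filtered out in the oocytes cannot be told from lists of called sites.

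The group of mitotic kinases had 13 genes with 14, 20 and 35 sites, of which 1, 1 and 2 were in Aurkaip1, a mitochondrial protein that interacts with an aurora kinase and is not itself a kinase. Plk1, the polo-like kinase that promotes CDK1 activation and the APC/C, had the clearest course. Its site 67 nt into the CDS stood at 16.9% of 1654, 27% of 1615 and 42.9% of 587 reads, and each step passed the test (exact, adjusted p = 2.9e-10 and 3.8e-11). Another site of the same CDS, 401 nt in, stood at 26.4% of 629, 26.5% of 309 and 21.4% of 89 reads and passed none, so sites of 1 mRNA did not move together. Plk4, the kinase of centriole duplication, stood at 43.1% of 404, 50.9% of 379 and 87.3% of 166 reads, with the gain in the embryo (exact test, adjusted p = 1.3e-15). Plk3, a stress-responsive relative, had 1 site in both oocytes, 4 more in the MII oocyte and none in the embryo list, all under 50 reads.

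The aurora kinases differed in where they were listed. Aurkc, the form found mainly in germ cells, had a CDS site at 49.1% of 1533, 55.1% of 1550 and 69.2% of 457 reads, with both steps past the test (exact, adjusted p = 0.0077 and 5.4e-07). Aurkb, the kinase of the chromosomal passenger complex, had a 5′ UTR site at 22.2% of 36 and 22.5% of 40 reads in the oocytes and 100% of 20 in the embryo (83.2% to 100%). This difference of 77.5 points from the MII oocyte was the greatest of any regulator site in that pair (exact test, adjusted p = 2.1e-08), on few reads. Aurka, the spindle pole kinase, had 5 sites in the embryo alone, at 10.1% to 16.2%, and its pair of CDS sites had 483 and 784 reads. Nek2, a centrosome kinase, had a CDS site at 10.2% of 1092, 15.5% of 839 and 18.5% of 227 reads, with the gain between the oocytes called (exact test, adjusted p = 0.0048) and the later one not. Nek10, a relative of less known function, stood at 67.6% of 179, 74.8% of 135 and 66.7% of 36 reads and passed no test.

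The group labelled G1/S, which held only Ccnd3 and Ccnf, and the regulators of replication origins had few sites. Cdk2 was counted with the switch of CDK1. Ccnd3, a D-type cyclin, had a CDS site at 21.7% of 115, 48.6% of 107 and 48.7% of 39 reads, with its gain between the oocytes (exact test, adjusted p = 0.00054). Ccnf, an F-box protein of a ubiquitin ligase, had a site with the same course, at 27.4% of 438, 36.4% of 439 and 36.0% of 89 reads (exact test between the oocytes, adjusted p = 0.028). Cdc6, which loads the replicative helicase, had a Type II site at 16.2% of 154, 15.9% of 132 and 34.4% of 32 reads, which just passed the test in the embryo (exact, adjusted p = 0.047 against the MII oocyte). Cdc45, a part of the active helicase, had 3 sites in both oocytes and none in the embryo list, with levels of 11.1% to 25% in the GV oocyte and 18.4% to 45.5% in the MII oocyte. Cdc7, the kinase that fires origins, had a site at 12.0% of 117 and 20.7% of 87 reads in the oocytes, which did not pass the test, and 2 others in the embryo.

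The cyclins and kinases of transcription and splicing share names with the cell cycle genes and act on RNA polymerase II or splicing factors. They had 23, 27 and 41 sites in 11 genes. Cdk13, a kinase of the polymerase tail, had 15 distinct sites. Its 5′ UTR site 230 nt before the start codon stood at 34.5% of 232, 57.1% of 205 and 100% of 39 reads, and each step passed the test (exact, adjusted p = 5e-05 and 4.4e-08). A CDS site of the same mRNA stood at 69.2% of 201, 70.8% of 168 and 77.3% of 44 reads and passed none. Cdk12, its nearest relative, had a site at 13.6% of 957, 20.0% of 940 and 15.5% of 219 reads that was called higher between the oocytes (exact test, adjusted p = 0.0024) and in no other pair. Ccnl1 and Ccnl2, cyclins tied to splicing, had CDS sites at 46.9%, 60.9% and 100% (20 reads in the embryo) and at 73.5%, 85.7% and 80.0%. The Type II site of Ccnl2 stood at 10.9% of 384, 15.8% of 430 and 35.3% of 136 reads, and passed the test in the embryo (exact, adjusted p = 1.3e-05 against the MII oocyte).

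Cdc42, a small GTPase of cell polarity with a part in polar body extrusion, and its binding proteins had 13, 16 and 27 sites in 8 genes. The 3 Cdc42 sites called at every stage were level between the oocytes and higher in the embryo, for example at 11.1% of 775, 11.2% of 717 and 22.8% of 228 reads (exact test against the MII oocyte, adjusted p = 1e-04). Cdc42se2, a small Cdc42 effector, had a 3′ UTR site at 33.1% of 1740, 41.4% of 1620 and 62.8% of 196 reads, with each step called. Cdc42ep3, another effector, had a Type II site at 43.6% of 39, 27.3% of 33 and 70.6% of 34 reads. Its lower value in the MII oocyte did not pass the test, and the later rise did (exact, adjusted p = 0.0017). In this group 8 of 10 sites shared by MII oocyte and embryo (against 51.3% of all shared sites), and 8 of 8 shared by GV oocyte and embryo (against 66.1%), were called higher. These sites lay in 5 genes and were deeply read, with medians of 740 reads in the MII oocyte and 142 in the embryo. Over all sites of that pair the medians were 240 and 66. The median difference was 13.5 points from the MII oocyte, against 12.7, and 15 from the GV oocyte, against 19.2. The part of depth in the shares was not tested. Other groups had lower shares from MII oocyte to embryo, with 0 of 3 for Ccnd3 and Ccnf and 9 of 21 for the remaining cyclins, kinases and Cdc genes.

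Among the remaining cyclins, kinases and Cdc genes, Cdk2ap2, a small CDK2-associated protein, had 2 of the 5 deepest sites called at every stage. The CDS site stood at 20.6% of 1518, 32.2% of 1549 and 50.6% of 478 reads and the 3′ UTR site at 42.2% of 1143, 51.1% of 927 and 58.6% of 444, and both passed the test at each step. Cdk20, a kinase of the CDK family, stood at 11.2% of 499, 14.7% of 510 and 20.9% of 306 reads. Cdk16, a PCTAIRE kinase, held the only regulator site that was called lower in the embryo. This 5′ UTR site, 86 nt before the start codon, stood at 23.7% of 743 and 26.5% of 710 reads in the oocytes and at 14.3% of 119 in the embryo (exact test, adjusted p = 0.0092 against the MII oocyte and 0.037 against the GV oocyte). A CDS site of Cdk16 rose in the same libraries, from 33.9% of 218 and 37.7% of 228 to 57.0% of 121 reads (exact test, adjusted p = 0.0019 against the MII oocyte). The one regulator site called lower in the MII than in the GV oocyte was in the 3′ UTR of Ccni, an atypical cyclin, and it was also among the greatest rises in the embryo, so its levels followed neither of the common courses.

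A further pair of genes, set apart as a group, matched the rule by letters alone. Madd, an exchange factor for Rab GTPases, had 17 distinct sites, the most of any gene here, and Emilin2, a protein of the extracellular matrix, had 10. Together they gave 13, 15 and 18 of the sites. Adjacent cytosines of Emilin2 stood at 86.2%, 86.5% and 91.3% for the first and at 37.4%, 67.9% and 100% for the second, so that only the second changed past the test (exact, adjusted p = 7.4e-07 between the oocytes).

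Levels of 100% were found at 11 regulator sites, all in the embryo (3.94% of its sites there, against 2.2% over all genes), each with 20 to 51 reads. Of these, 10 were also called in an oocyte list at a lower level, and the Mad2l2 site was not.

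Shared sites were read less deeply in the embryo. The reads at a regulator site in the embryo were a median of 0.283 times those in the MII oocyte and 0.273 times those in the GV oocyte, and in the MII oocyte 0.915 times those in the GV oocyte. Relative to the median ratio of all shared sites these were 0.889, 0.975 and 1.06. Coverage was not normalized and comes from called sites, and in such bulk libraries fewer cells and less RNA per cell cannot be told apart. From MII oocyte to embryo Bub1b lay low, at 0.247 times the median ratio, and Ccnb1 high, at 2.38 times, each at 1 site. Cdc20 stood at 0.473, Wee2 at 0.963 and the deepest Plk1 site at 1.14.

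Among regulators with at least 2 shared sites, the highest relative ratios from MII oocyte to embryo were those of Cdk20 (2.03), Cdk5rap1 (2) and Cdc25a (1.64), and the lowest those of Emilin2 (0.427), Cdc42bpb (0.448) and Madd (0.475). From GV to MII oocyte the ratios ran from 0.684 for Fzr1 to 1.48 for Anapc15. From GV oocyte to embryo they ran from 0.401 for Madd to 1.89 for Cdc25a.

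**Figure D5:**
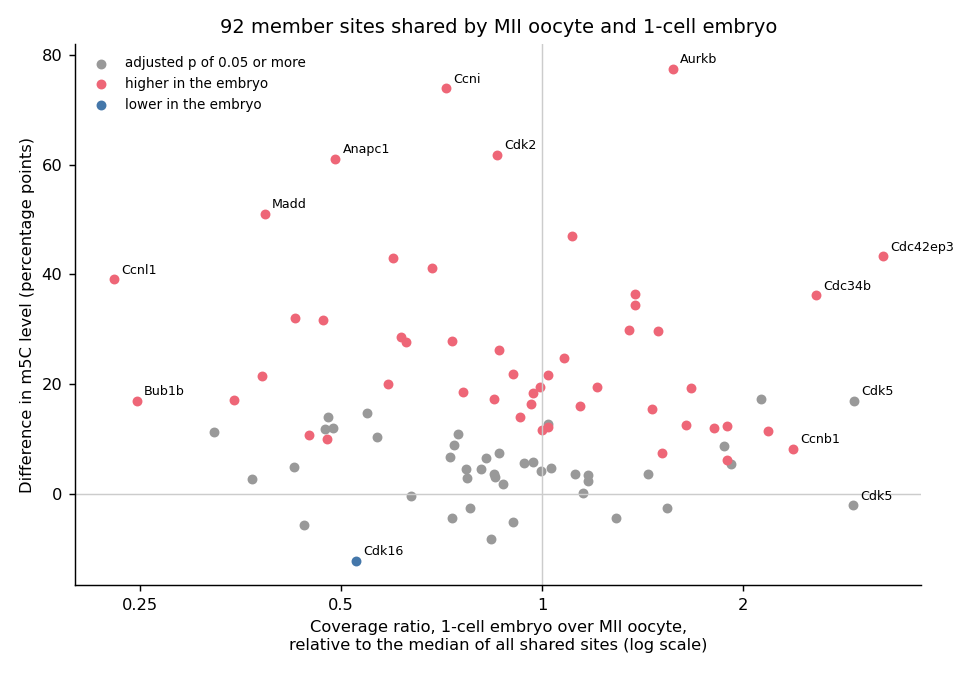
Difference in m5C level from MII oocyte to 1-cell embryo, in percentage points, against the ratio of coverage relative to the median of all shared sites (log scale), for the 92 shared regulator sites. Bub1b (0.247) and Ccnb1 (2.38) lie towards opposite ends of coverage and both were called higher in the embryo, and Cdk16 is the 1 site called lower.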

How the data were processed

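RNA bisulfite libraries of mouse GV oocytes, MII oocytes and 1-cell embryos were analysed from the lists of called sites, 1 library per stage. Per the labels and the methods of the study, reads were trimmed with cutadapt 1.13 and Trimmomatic 0.36 and aligned to converted references (build mm10, that is GRCm38) with HISAT2 and Bowtie2 2.2.9, and sites were filtered. The labels name polyadenylated RNA and the methods name RNA depleted of ribosomal RNA. The authors deposited coverage as a count of reads at each site, with no normalization. The authors gave the m5C level as a fraction, which is printed as a percentage. The p-value that the authors deposited tests the unconverted reads of a site against the conversion of its gene (binomial, one-sided). No listed site had under 20 reads, under 5 unconverted reads or a level under 10%.

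Unconverted reads were taken as level times coverage, whole to within 2.9e-05 reads. Sites were placed with GENCODE M21 in the order CDS, 5′ UTR and 3′ UTR, and 0 sites on chromosomes differed from C on their strand. Sites with CUCNA from the site on were Type II. Intervals of shares and of levels at single sites are exact Clopper-Pearson, 95%, and cover counting error only, since no molecular identifiers are named. Intervals of median levels and median differences are 95% intervals from the ranked values of the sites. They treat sites of 1 library as independent and describe the spread over sites, not over replicates. Shared sites were tested as stated above with a threshold of 0.05, and the test was checked on simulated data. The simulated reads were drawn independently at the coverages of each pair. They held no copies of 1 molecule and no variation between libraries, so the check does not cover these. Windows reaching equally far on each side of a site were folded at 37 °C with ViennaRNA 2.7.2. Tests ran in scipy 1.17.1 and pandas 2.3.3 under Python 3.11.15, and sequence was read with pysam 0.24.0. The members, role groups, marker and pathway lists were chosen with earlier results of these data known. The named genes were core members by role, the 5 sites with the largest called rise or fall for each pair, the 5 genes with most sites, the 5 deepest sites called at every stage, the genes with the highest and lowest coverage ratios, and Type II sites called at every stage. Further sites were added after their values were seen, to show sites of 1 gene side by side or to describe a role group. Alternatives were a coverage of at least 50 reads, a level of at least 20%, omission of members by letters alone, the motif CUCCA, thinning to 20 reads and division of reads by 5.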

Additional observations from a re-analysis of the deposited data

How the results depend on the processing

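With a level of at least 20%, which raises medians by construction, the regulators had 64, 80 and 165 sites at the successive stages and median levels of 36.6%, 37.7% and 36.6%. With at least 50 reads the embryo had 167 sites at a median of 17.5%. At that depth 33 of 41 shared sites were higher in the embryo than in the GV oocyte, against 69.3% of all shared sites. The pairs are given in the order GV to MII oocyte, MII oocyte to embryo and GV oocyte to embryo. Thinned to 20 reads, 0 of 112, 9 of 92 and 12 of 72 sites were higher, against 0.00772%, 9.68% and 19.2% of all shared sites. At an unadjusted p under 0.05 (exact test) the regulator counts were 7, 22 and 23. The counts lower were 0, 0 and 0 (0, 0 and 0 unadjusted), against 0%, 0.137% and 0.108% of all shared sites. With reads divided by 5, 0, 7 and 12 were higher, against 0.672%, 7.34% and 21.1% of all shared sites. At that setting 0, 0 and 0 were lower (1, 0 and 0 unadjusted), against 0.0232%, 0.0624% and 0.0772%. Both settings cut the reads tested. Of 45 values of single named sites under an alternative, 22 were no longer past the threshold and none changed direction. Median differences, CDS shares and Type II shares stayed within their intervals under the alternatives run. No paired analysis was possible because each stage had 1 library. Coverage limits the embryo most, where 40.1% of regulator sites had under 50 reads.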

Other observations

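Regulators of the same pathways whose names fall outside the naming rule gave values of the same kind. Of 80 such genes looked for, 63 had a called site, with 126, 161 and 221 sites at the successive stages. For this count too, no share over all protein-coding genes was computed. Of their shared sites, 27 of 108 were called higher from GV to MII oocyte, 44 of 81 from MII oocyte to embryo and 43 of 62 from GV oocyte to embryo (Fisher's exact test as above), and none was called lower, against 19.6%, 51.3% and 66.1% of all shared sites called higher.

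Espl1 (separase), the protease that opens cohesin at anaphase, had 9, 14 and 25 sites, all in the CDS. One of its sites stood at 77.9% of 570, 85.9% of 455 and 89.2% of 102 reads, and another at 10.1% of 716, 12.9% of 535 and 38.0% of 121 reads. Cdkn1c (p57), a CDK inhibitor from an imprinted gene, was the reverse in its listing, with 10 and 12 sites in the oocytes and none in the embryo list. Subunits of the replicative helicase differed. Mcm5 had 5, 7 and 13 sites, Mcm6 had 3, 4 and 8 and Mcm7 had 1, 1 and 8. The embryo list held no more sites than the MII oocyte list for Mcm2 (4, 7 and 5), Mcm3 (6, 7 and 6) and Mcm4 (1, 3 and 3). Mastl (Greatwall), a kinase that protects the phosphorylation of CDK1 substrates during M phase, had 1, 5 and 7 sites, and Gpr3, the receptor that keeps cyclic AMP high during the GV arrest, had 1, 3 and 6.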
